A study of Bos taurus with 6 samples.

Results

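Complex I of the respiratory chain was followed at the transcript level through its nuclear-encoded subunits and assembly factors, the genes whose names begin with NDUF. Members were all probes, controls aside, whose gene name in the array files, or symbol in brackets in the probe description, began with NDUF, and each gene was represented by its brightest probe, the one with the highest mean log2 processed intensity over the 6 arrays. The rule used no difference between the groups. It found 85 of the 43653 probes and 43 genes, of which 42 were measured, all well above background on each of the 6 arrays. The remaining gene, NDUFAF1, was not well above background in any animal. The array held 1 probe for 16 of the genes and several for 27.

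Complex I, or NADH:ubiquinone oxidoreductase, is the entry point of the respiratory chain for electrons from NADH. Its peripheral arm reaches into the mitochondrial matrix and passes electrons along a chain of iron-sulfur clusters to ubiquinone, and its membrane arm pumps protons. Core subunits carry out the reaction, accessory subunits surround and stabilise them, and assembly factors help to build the complex without remaining in it. The core subunits of the membrane arm are encoded by mitochondrial DNA and the rest by the nucleus. Most circulating white cells carry mitochondria, while mature red cells of mammals have none.

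RNA was taken from jugular vein whole blood of 6 female cattle, 3 that carried the fat-1 transgene and 3 wild type, and each animal was hybridised to 1 single-colour Agilent bovine array. The fat-1 gene comes from the nematode Caenorhabditis elegans and encodes a desaturase that converts omega-6 into omega-3 fatty acids, which mammals cannot do. The labels give an age of 3.5 years for fat-1 replicate 1 and of 3 years for the rest. The labels used here give neither the promoter of the transgene nor whether the fat-1 animals came from 1 clone, and the genotype was not checked at the transcript.

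Arrays of fat-1 blood had a 75th percentile of processed intensity of 714, 745 and 1065, against 742, 611 and 886 for wild type blood, and 58.4% to 63.4% of probes were well above background. The fat-1 arrays shared slide 1 and scan 1 and the wild type arrays slide 2 and scan 2, so slide and genotype cannot be told apart. A level below is log2 processed intensity relative to the array's 75th percentile, and a table value is the log2 value in the authors' deposited table, whose distribution was made the same on every array. Each difference is the fat-1 mean less the wild type mean, in log2 units. The array of wild type replicate 2 stood apart under 75th percentile scaling: among the brightest of 10 equal bins of probes its median deviation from the 6-array mean was 0.37, against -0.12 to 0.10 on the other 5 arrays, and in the authors' table it was 0.02. Differences in levels at the brightest probe of members are therefore followed by their value without that animal, and for 24 of the 42 measured members that value was over 1.5 times nearer to 0 or of the other sign. In whole blood, fewer cells of a type and less RNA per cell cannot be told apart.

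The following 60-base probes, that of NDUFA10 aside, are shown because their differences are set beside those of the brightest probe of the same gene further on. Only that of NDUFA10 is itself the brightest probe, from which the values of a gene are taken. Their positions are those of the array files, on the cattle build Btau_3.1, and whether they fall in an exon or an untranslated region is not given, for lack of gene models of that build here. The probe of NDUFS8 lies at chr29:47592742-47592801, minus strand. NDUFS1 is read at chr2:99542190-99542249, minus strand, and, over a span of 3405 bases, at chr2:99543899-99547303, minus strand. The probe of NDUFS6 spans chr20:74840214-74843460, minus strand, which is 3247 bases, and that of NDUFB4 spans chr1:66319923-66321465, plus strand, which is 1543 bases. A span longer than 60 bases covers sequence that the probe lacks. The probe of NDUFA10 has no position in the files.
NDUFS8: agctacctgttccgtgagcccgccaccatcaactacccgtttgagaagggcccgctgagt
NDUFS1 probe 1: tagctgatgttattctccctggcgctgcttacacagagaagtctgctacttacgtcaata
NDUFS1 probe 2: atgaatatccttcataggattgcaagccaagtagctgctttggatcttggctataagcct
NDUFS6: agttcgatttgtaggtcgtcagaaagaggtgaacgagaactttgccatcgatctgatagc
NDUFB4: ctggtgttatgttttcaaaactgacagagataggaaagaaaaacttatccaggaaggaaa
NDUFA10: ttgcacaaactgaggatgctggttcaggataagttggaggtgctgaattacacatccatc

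No complex I gene passed the test, and most had a difference below 0, like most bright probes under 75th percentile scaling. Under 75th percentile scaling 38 of 42 measured members had a difference below 0, with a median of -0.25 and a range of -0.67 to 0.17. Of all 26810 probes fitted, 55.4% had a difference below 0 and the median was -0.06. Among the 10780 measured genes with a symbol, taken at 1 probe each, 58% were below 0. With probes divided into 10 equal bins by brightness, 81.8% of all probes were below 0 in the brightest bin, which held 28 members, and 71.1% in the next, which held 9. By the authors' values, 32 of 42 members were below 0, where 51.8% of all probes and 51.2% of genes were, and the median of members was -0.08 against -0.02 over all probes. The size of the shift therefore depended on the scaling, and 6 members, NDUFV2, NDUFA2, NDUFA5, NDUFA7, NDUFB3 and NDUFAB1, changed sign between the 2 scalings. Without wild type replicate 2 the median of members was -0.14 and 40 of 42 were below 0. All probes then had a median of -0.02, with 52.2% below 0. Shares by brightness were not taken without that animal.

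None of the 42 members reached an adjusted p of 0.05 in limma's moderated test with Benjamini-Hochberg adjustment over all probes, where 0.172% of all probes did. The lowest adjusted p among them was 0.344, and 0.299 in the authors' table, where 0.0597% of all probes passed. At an unadjusted p under 0.05, 1 member, NDUFA4L2, was counted in limma's test under each scaling, and it was lower in fat-1 blood. Of all probes 12.8% were counted so in levels, with 6.68% counted lower, and 13.8% in the authors' table, with 7.69% counted lower. The 95% intervals of the members reached down to between -1.20 and -0.44 and up to between -0.13 and 0.83, and 37 of 42 included -0.5.

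In 16 of 42 members every fat-1 animal was below every wild type animal, and in 0 it was above. Of all probes 19.6% had no overlap between groups, 12.7% lower and 6.91% higher. Among the 10780 genes with a symbol 1432 were lower and 777 higher without overlap. Most members are brighter than most probes, and the share among probes of like brightness was not taken, here or for the arms below. By the authors' values, 9 members were lower without overlap and 1, NDUFA9, was higher, where 20.6% of all probes had none, 12.8% lower and 7.8% higher. Genes with a symbol were lower in 1350 and higher in 917 cases by these values. NDUFS8, NDUFA3, NDUFB4, NDUFB7, NDUFB9, NDUFB10, NDUFB11 and NDUFA4L2 were lower without overlap under both scalings. Of all probes 10.7% were lower without overlap under both.

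**Figure D1:**
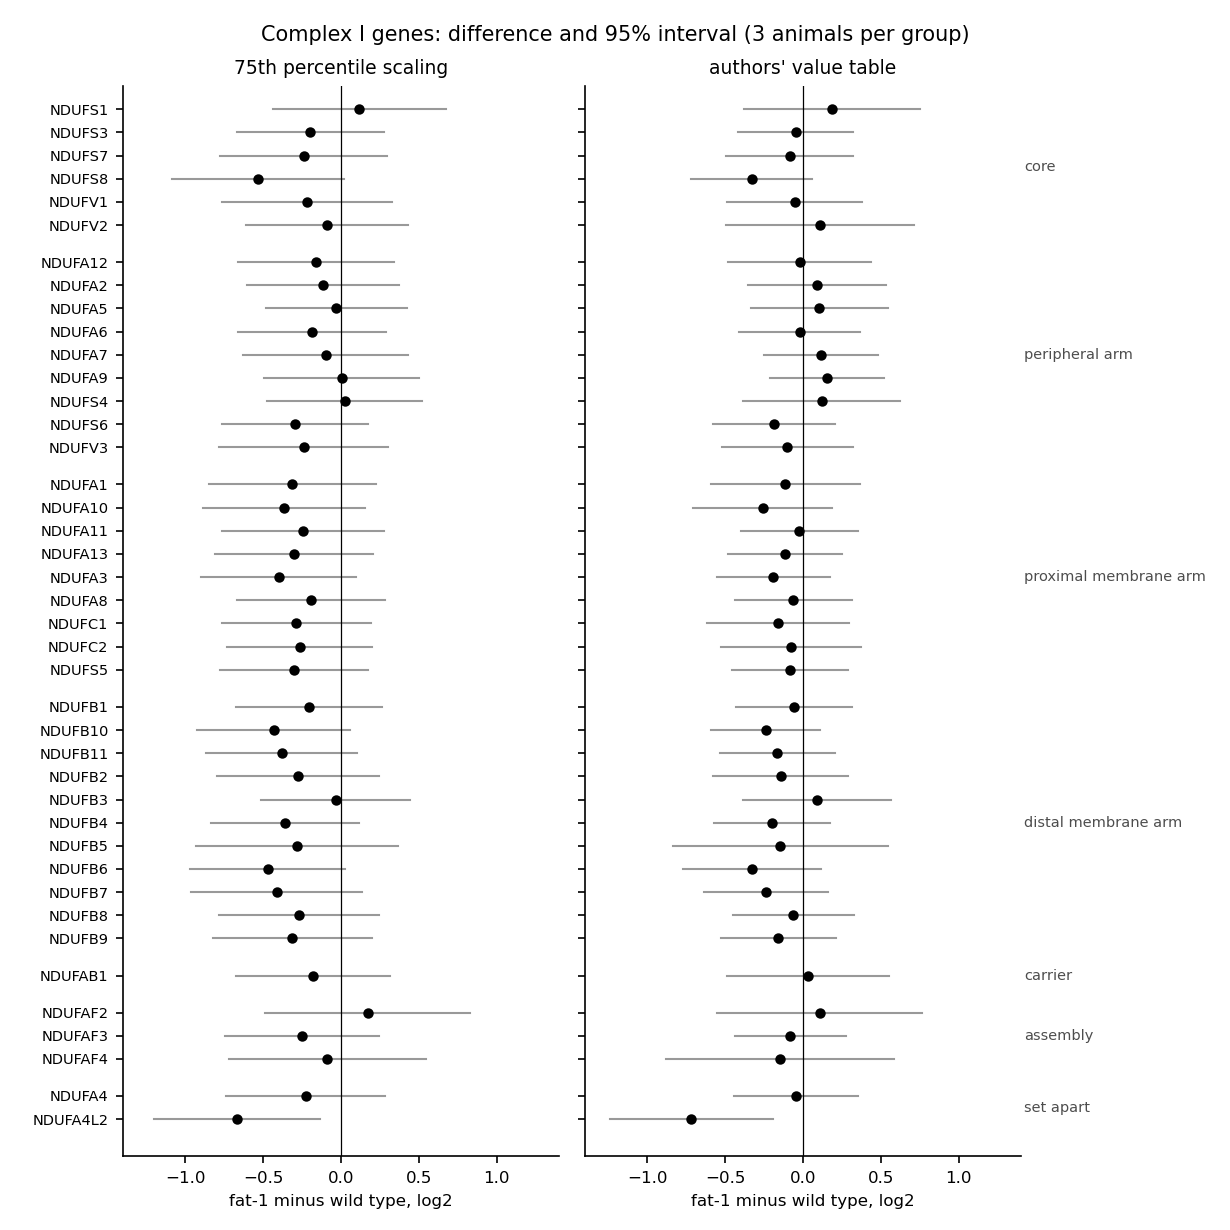
Difference of measured complex I genes between fat-1 and wild type blood (log2, fat-1 minus wild type; point) with its 95% interval (line), grouped by role, under 75th percentile scaling (left) and in the authors' table (right). NDUFA4L2 is the 1 gene shown whose interval lies wholly below 0 in each panel, and the points on the right sit nearer 0, with medians of -0.08 against -0.25.

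The 7 nuclear-encoded core subunits carry the flavin and the iron-sulfur clusters. Of these, 6 had a difference below 0 under 75th percentile scaling (median -0.22, -0.06 without wild type replicate 2) and 5 in the authors' table (median -0.05), and none passed the test. NDUFV1, which binds NADH and the flavin, had levels of 4.74, 4.53 and 4.39 in fat-1 blood, against 4.62, 5.14 and 4.56 in wild type blood. Wild type replicate 2 was the highest and fat-1 replicate 3 the lowest, and the groups overlapped. Its difference was -0.22 (SE 0.24, -0.03 without wild type replicate 2), and -0.05 in the authors' table, where the values were 14.49, 14.21 and 14.06 in fat-1 blood, against 14.18, 14.43 and 14.31 in wild type blood. NDUFV2, which carries an iron-sulfur cluster beside it, had levels of 4.99, 4.51 and 4.85 in fat-1 blood, against 5.06, 4.66 and 4.90 in wild type blood. Replicate 2 was the lowest of each group, and the groups overlapped. The difference was -0.09 (SE 0.23, -0.19 without wild type replicate 2) and turned to 0.11 in the authors' table, from values of 14.75, 14.19 and 14.57 in fat-1 blood, against 14.58, 13.95 and 14.64 in wild type blood.

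NDUFS1, the subunit with several clusters that lead electrons away from the flavin, was the 1 core subunit above 0 under both scalings. Its levels were 1.76, 1.32 and 1.79 in fat-1 blood, against 1.64, 1.19 and 1.69 in wild type blood. Replicate 2 was again the lowest of each group and the groups overlapped, with a difference of 0.12 (SE 0.24, -0.04 without wild type replicate 2). Table values were 11.47, 10.94 and 11.41 in fat-1 blood, against 11.21, 10.72 and 11.33 in wild type blood, which gave 0.19.

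NDUFS3, part of the ubiquinone module, had levels of 3.93, 3.95 and 3.91 in fat-1 blood, against 4.01, 4.38 and 4.01 in wild type blood. Every fat-1 animal was below every wild type animal, although wild type replicates 1 and 3 were only just above. In the authors' table the groups overlapped, with 13.68, 13.62 and 13.55 in fat-1 blood, against 13.57, 13.69 and 13.74 in wild type blood, and the difference was -0.05 in place of -0.20 (SE 0.21, -0.07 without wild type replicate 2). NDUFS7 holds the last cluster before ubiquinone, and its levels were 4.21, 4.02 and 4.02 in fat-1 blood, against 4.16, 4.70 and 4.09 in wild type blood. Wild type replicate 2 alone stood well above the others, and the difference was -0.24 (SE 0.23, -0.05 without wild type replicate 2). Table values of NDUFS7 were 13.93, 13.69 and 13.67 in fat-1 blood, against 13.72, 13.99 and 13.84 in wild type blood, which gave -0.08.

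NDUFS8, which passes electrons to NDUFS7, had the lowest difference of the core subunits. Its brightest probe lies at chr29:47590715-47590774, minus strand. Its levels were 4.82, 4.90 and 4.79 in fat-1 blood, against 5.21, 5.80 and 5.09 in wild type blood. All 3 fat-1 animals were below all 3 wild type animals, with wild type replicate 2 the highest. The difference was -0.53 (SE 0.24, -0.32 without wild type replicate 2, 95% interval -1.09 to 0.02), with an adjusted p of 0.396 in limma's test. In the authors' table the values were 14.57, 14.59 and 14.50 in fat-1 blood, against 14.74, 15.05 and 14.85 in wild type blood, without overlap, and the difference was -0.33 (SE 0.16, adjusted p = 0.397 in limma's test). Leaving out 1 animal at a time gave differences of -0.67 to -0.32 for NDUFS8.

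**Figure D2:**
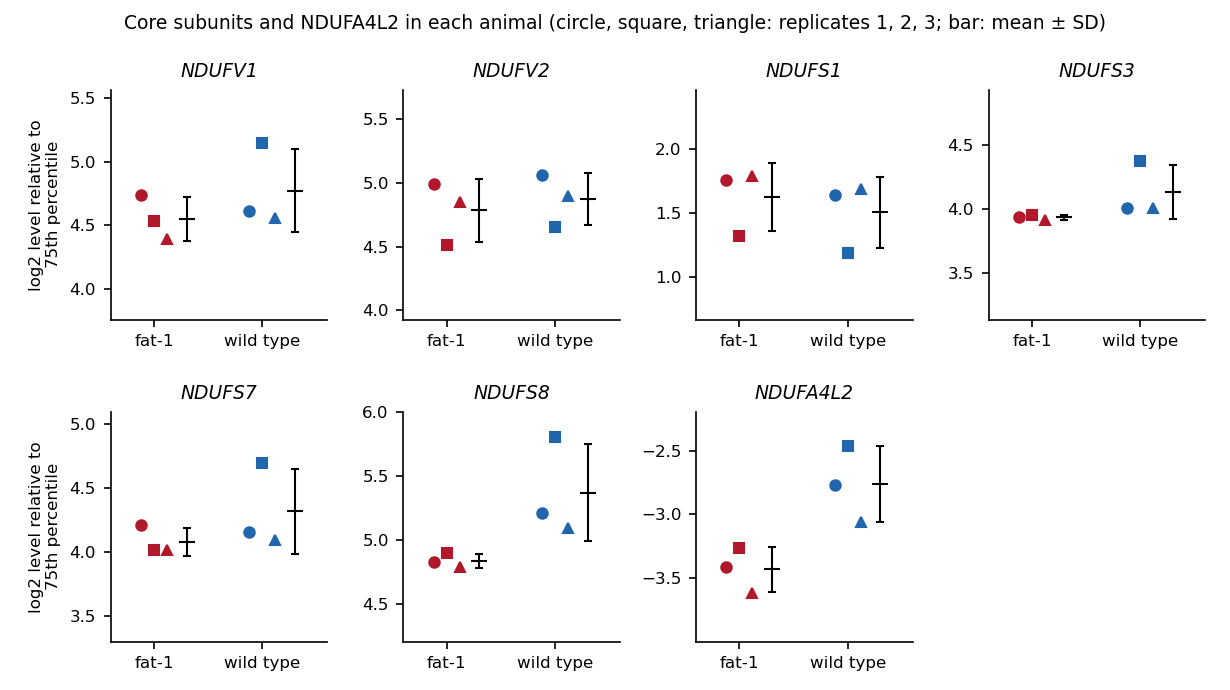
Level of core subunits and of NDUFA4L2 in each animal (log2 processed intensity relative to the array's 75th percentile), fat-1 on the left and wild type on the right of each panel, with the mean and SD of 3 animals beside them. In NDUFV1, NDUFS3, NDUFS7 and NDUFS8 wild type replicate 2 (square) is the highest animal, and NDUFS3, NDUFS8 and NDUFA4L2 have no overlap between the groups.

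All 9 accessory subunits of the peripheral arm were measured, and none passed the test. Of these, 7 were below 0 under 75th percentile scaling with a median of -0.11 (-0.09 without wild type replicate 2), and 4 in the authors' table with a median of 0.09. NDUFS6, a zinc-binding subunit added late to the NADH module, had levels of 2.15, 2.04 and 2.15 in fat-1 blood, against 2.23, 2.63 and 2.36 in wild type blood. The fat-1 animals were all lower, by the least between fat-1 replicate 1 and wild type replicate 1. Table values were 11.87, 11.68 and 11.75 in fat-1 blood, against 11.79, 12.03 and 12.04 in wild type blood, where fat-1 replicate 1 was above wild type replicate 1, and the difference was -0.30 (SE 0.21, -0.19 without wild type replicate 2) in levels and -0.19 in the table. NDUFV3, which is attached to the NADH module, had levels of 2.38, 2.37 and 2.51 in fat-1 blood, against 2.75, 2.96 and 2.27 in wild type blood. Wild type replicate 3 was below all fat-1 animals in NDUFV3, and the difference was -0.24 (SE 0.24, -0.09 without wild type replicate 2), and -0.10 from table values of 12.10, 12.04 and 12.15 in fat-1 blood, against 12.30, 12.34 and 11.95 in wild type blood.

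NDUFA6 anchors the acyl carrier protein NDUFAB1 to the peripheral arm. It had levels of 4.34, 4.37 and 4.57 in fat-1 blood, against 4.70, 4.74 and 4.40 in wild type blood. Fat-1 replicate 3 was above wild type replicate 3, and the difference was -0.19 (SE 0.21, -0.12 without wild type replicate 2). Table values were 14.07, 14.05 and 14.25 in fat-1 blood, against 14.26, 14.03 and 14.15 in wild type blood, with a difference of -0.02. NDUFS4, whose loss in mice causes a fatal brain disease, had a difference of 0.02 (-0.10 without wild type replicate 2), and 0.12 in the authors' table. NDUFA9, beside the ubiquinone pocket, had a difference of 0.01 with overlap (0.16 without wild type replicate 2), and of 0.15 without overlap in the authors' table. NDUFA2, NDUFA5, NDUFA7 and NDUFA12 were at -0.11, -0.03, -0.10 and -0.16 under 75th percentile scaling, and in the authors' table they were at 0.09, 0.10, 0.12 and -0.02. Without wild type replicate 2 the levels of these 4 gave -0.06, -0.06, 0.09 and -0.12.

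Accessory subunits of the proximal membrane arm, the portion nearer to the peripheral arm, were below 0 in 9 of 9 cases under both scalings, with a median of -0.30 in levels (-0.20 without wild type replicate 2) and -0.11 in the authors' table. None passed the test. Without overlap, 6 of 9 were lower in levels, against 12.7% of all probes, and 2 of 9, NDUFA3 and NDUFA13, in the table, against 12.8%. NDUFA3, a small subunit with a single membrane helix, had levels of 5.10, 5.19 and 5.02 in fat-1 blood, against 5.51, 5.76 and 5.24 in wild type blood. The fat-1 animals were all lower, and wild type replicate 2 was the highest. Its difference was -0.40 (SE 0.22, -0.27 without wild type replicate 2), and -0.19 (SE 0.15) from table values of 14.84, 14.90 and 14.74 in fat-1 blood, against 15.06, 15.00 and 14.99 in wild type blood, again without overlap.

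NDUFA10, which resembles a nucleoside kinase, had levels of 1.92, 1.66 and 1.71 in fat-1 blood, against 1.94, 2.46 and 1.98 in wild type blood. Fat-1 replicate 1 was just below wild type replicate 1, and wild type replicate 2 was far above the rest. The difference was -0.36 (SE 0.23, -0.20 without wild type replicate 2). In the table its values were 11.63, 11.28 and 11.33 in fat-1 blood, against 11.51, 11.88 and 11.63 in wild type blood, where fat-1 replicate 1 was above wild type replicate 1, and the difference was -0.26. NDUFS5 lies on the side of the intermembrane space, and its levels were 5.26, 5.49 and 5.40 in fat-1 blood, against 5.62, 5.90 and 5.54 in wild type blood. No animal overlapped, with a difference of -0.30 (SE 0.21, -0.19 without wild type replicate 2). From table values of 15.00, 15.18 and 15.14 in fat-1 blood, against 15.16, 15.14 and 15.28 in wild type blood, with overlap, it was -0.08. The other 6, NDUFA1, NDUFA8, NDUFA11, NDUFA13, NDUFC1 and NDUFC2, ranged from -0.31 to -0.19 in levels, from -0.29 to -0.06 in levels without wild type replicate 2, and from -0.16 to -0.02 in the authors' table. NDUFA13 is also known as a regulator of cell death and was at -0.30 in levels (-0.15 without wild type replicate 2) and -0.11 in the table.

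The distal membrane arm, at the far end from the peripheral arm, has NDUFB subunits as its accessory members. All 11 NDUFB subunits were below 0 in levels, with a median of -0.31, -0.20 without wild type replicate 2, and 10 in the authors' table, with a median of -0.16 and NDUFB3 as the exception (-0.03 in levels, -0.11 without wild type replicate 2, 0.09 in the table). None passed the test. Without overlap, 6 of 11 were lower in levels, against 12.7% of all probes, and 5 of 11 in the table, against 12.8%. No test compared the arms. NDUFB6 had levels of 3.57, 3.46 and 3.95 in fat-1 blood, against 4.11, 4.23 and 4.05 in wild type blood. Fat-1 replicate 3 came nearest to the wild type animals, and the groups did not overlap. The difference of NDUFB6, a single-helix subunit, was -0.47 (SE 0.22, -0.42 without wild type replicate 2, adjusted p = 0.399 in limma's test), and -0.33 from table values of 13.31, 13.12 and 13.59 in fat-1 blood, against 13.67, 13.55 and 13.78 in wild type blood, which overlapped.

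NDUFB10, held by disulfide bonds on the intermembrane side, had levels of 5.48, 5.49 and 5.47 in fat-1 blood, against 5.88, 6.19 and 5.66 in wild type blood. The 3 fat-1 animals were nearly equal and the wild type animals were all higher. Its difference was -0.43 (SE 0.22, -0.29 without wild type replicate 2, 95% interval -0.93 to 0.06). In the table the values were 15.21, 15.17 and 15.22 in fat-1 blood, against 15.46, 15.45 and 15.41 in wild type blood, both groups tight and apart, with a difference of -0.24 (SE 0.15, 95% interval -0.59 to 0.11). NDUFB11, encoded on the X chromosome in humans, had levels of 5.21, 5.27 and 5.40 in fat-1 blood, against 5.62, 5.92 and 5.49 in wild type blood. The nearest animals were fat-1 replicate 3 and wild type replicate 3, and they did not overlap. The difference was -0.38 (SE 0.21, -0.26 without wild type replicate 2), and -0.16 from table values of 14.95, 14.96 and 15.14 in fat-1 blood, against 15.16, 15.16 and 15.22 in wild type blood, where the same fat-1 animal lay just below the wild type animals.

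NDUFB7, like NDUFB10 an intermembrane-side subunit, had levels of 4.39, 4.52 and 4.49 in fat-1 blood, against 4.66, 5.30 and 4.69 in wild type blood. Wild type replicate 2 stood far above the other wild type animals, which were still above all fat-1 animals. The difference was -0.41 (SE 0.24, -0.20 without wild type replicate 2), and -0.24 from table values of 14.13, 14.20 and 14.18 in fat-1 blood, against 14.22, 14.57 and 14.44 in wild type blood, where the lowest wild type and highest fat-1 animal nearly met. NDUFB4 had levels of 4.0, 3.98 and 4.19 in fat-1 blood, against 4.40, 4.61 and 4.24 in wild type blood. The lowest wild type animal was replicate 3, just above fat-1 replicate 3. NDUFB4, a single-helix subunit, had a difference of -0.36 (SE 0.21, -0.26 without wild type replicate 2), and of -0.20 from table values of 13.74, 13.65 and 13.87 in fat-1 blood, against 13.96, 13.90 and 14.00 in wild type blood, again without overlap.

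NDUFB9, which anchors another copy of the acyl carrier protein, had levels of 4.11, 4.06 and 4.18 in fat-1 blood, against 4.31, 4.76 and 4.21 in wild type blood. Fat-1 replicate 3 and wild type replicate 3 were close and did not overlap. Its difference was -0.31 (SE 0.22, -0.15 without wild type replicate 2), and -0.16 from table values of 13.84, 13.72 and 13.86 in fat-1 blood, against 13.88, 14.05 and 13.97 in wild type blood, also without overlap. The remaining NDUFB1, NDUFB2, NDUFB5 and NDUFB8 were at -0.21, -0.28, -0.28 and -0.27 in levels, each with overlap, and without wild type replicate 2 at -0.14, -0.14, -0.37 and -0.14. In the authors' table these genes were at -0.06, -0.14, -0.14 and -0.06, each with overlap. NDUFAB1, the mitochondrial acyl carrier protein, also serves fatty acid synthesis in mitochondria. Its levels were 5.28, 5.03 and 5.55 in fat-1 blood, against 5.54, 5.47 and 5.40 in wild type blood. Fat-1 replicate 3 was the highest and fat-1 replicate 2 the lowest of the 6 animals. The difference was -0.18 (SE 0.22, -0.18 without wild type replicate 2) in levels and 0.03 from table values of 15.03, 14.72 and 15.32 in fat-1 blood, against 15.09, 14.73 and 15.15 in wild type blood.

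Of the assembly factors the rule found NDUFAF1 to NDUFAF4, and 3 were measured. NDUFAF3, which works with NDUFAF4 on the ubiquinone module, had levels of 4.53, 4.51 and 4.61 in fat-1 blood, against 4.79, 5.06 and 4.54 in wild type blood. Wild type replicate 3 lay among the fat-1 animals. The difference was -0.25 (SE 0.22, -0.12 without wild type replicate 2), and -0.08 from table values of 14.26, 14.19 and 14.30 in fat-1 blood, against 14.35, 14.35 and 14.30 in wild type blood. NDUFAF2, a chaperone of late assembly, was dim and variable, with levels of -2.38, -2.70 and -2.16 in fat-1 blood, against -2.10, -3.04 and -2.61 in wild type blood. Wild type replicate 1 was the highest and wild type replicate 2 the lowest animal. Its difference was 0.17 (SE 0.29, -0.06 without wild type replicate 2), the highest of all 42 members, and 0.11 from table values of 7.08, 6.91 and 7.50 in fat-1 blood, against 7.53, 6.63 and 7.01 in wild type blood.

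NDUFAF4 was dim as well, with levels of -3.82, -3.85 and -3.09 in fat-1 blood, against -3.29, -3.81 and -3.40 in wild type blood. Fat-1 replicate 3 was the highest animal and fat-1 replicates 1 and 2 were the lowest. The difference was -0.09 (SE 0.28, -0.24 without wild type replicate 2), and -0.15 from table values of 5.58, 5.74 and 6.64 in fat-1 blood, against 6.34, 5.85 and 6.22 in wild type blood. NDUFAF6 and NDUFAF7 were on the array under older names that the rule did not match, and were found through RefSeq names. Their differences were 0.08 and 0.19 in levels (0.003 and 0.013 without wild type replicate 2) and 0.02 and 0.13 in the authors' table. With these genes added, a step chosen after seeing the data, 38 of 44 genes were below 0.

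Of the genes the rule found, 2 stand apart by function, NDUFA4, now placed in cytochrome c oxidase, and its relative NDUFA4L2, a gene induced by low oxygen that lowers complex I activity in mouse and human cells. NDUFA4L2 had the lowest difference of all members, at a dim probe with a mean level of -3.10. Its levels were -3.41, -3.26 and -3.61 in fat-1 blood, against -2.77, -2.46 and -3.06 in wild type blood. All fat-1 animals were below all wild type animals, and wild type replicate 2 was the highest. The difference was -0.67 (SE 0.23, -0.52 without wild type replicate 2, 95% interval -1.20 to -0.13), with an adjusted p of 0.344 in limma's test over all probes. Table values of NDUFA4L2 were 5.99, 6.35 and 6.15 in fat-1 blood, against 6.87, 7.22 and 6.56 in wild type blood, without overlap and with a difference of -0.72 (SE 0.22, 95% interval -1.24 to -0.20). The array held 1 probe for it, at chr5:60719107-60719166, plus strand. NDUFA4 had levels of 5.91, 5.63 and 5.87 in fat-1 blood, against 6.10, 6.25 and 5.75 in wild type blood. Wild type replicate 3 was below fat-1 replicates 1 and 3, and the difference was -0.23 (SE 0.22, -0.12 without wild type replicate 2), and -0.04 from table values of 15.62, 15.35 and 15.61 in fat-1 blood, against 15.68, 15.50 and 15.52 in wild type blood. Leaving both genes out, chosen after seeing the data, gave 36 of 40 members below 0 and a median of -0.25.

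Animals differed within the groups as well as between them. The median deviation of the 42 members from their own 6-array means was -0.11, -0.21 and -0.05 in fat-1 blood, against 0.14, 0.36 and -0.03 in wild type blood under 75th percentile scaling. Wild type replicate 3 therefore lay beside fat-1 replicate 3, and wild type replicate 2 far above every other animal. In the authors' table the medians were 0.00, -0.15 and 0.03 in fat-1 blood, against 0.08, 0.04 and 0.08 in wild type blood. There the wild type animals were close together, and fat-1 replicate 2 was the lowest.

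**Figure D3:**
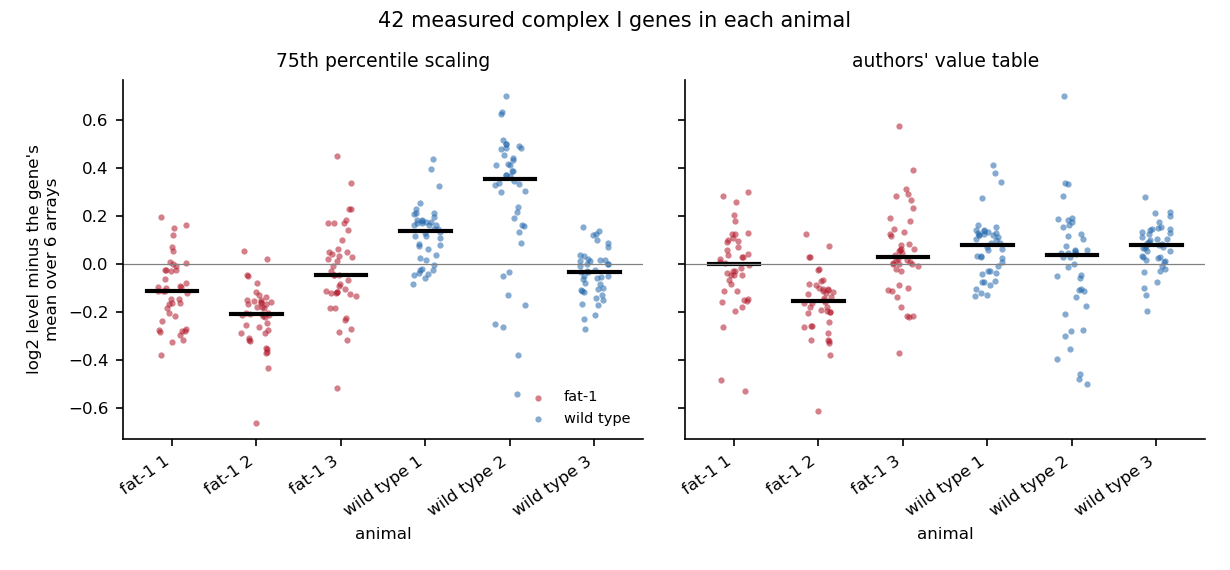
Deviation of each of the 42 measured complex I genes from its own mean over the 6 arrays (log2), by animal, with fat-1 animals on the left of each panel and the median as a bar. Under 75th percentile scaling (left panel) wild type replicate 2 has the highest median, 0.36, and in the authors' table (right panel) its median is 0.04.

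The probes of most complex I genes were bright, and bright probes as a whole had differences below 0 under 75th percentile scaling. Of the measured members 37 of 42 fell into the brightest 2 of the 10 bins. In the top bin all probes had a median difference of -0.21, and the 28 members there a median of -0.25. In the bin below it all probes had a median of -0.14, and the 9 members a median of -0.24. In the authors' table the medians of all probes in these bins were -0.02 and -0.01, with 54.5% below 0 in the top bin, and those of the members -0.07 and -0.10.

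**Figure D4:**
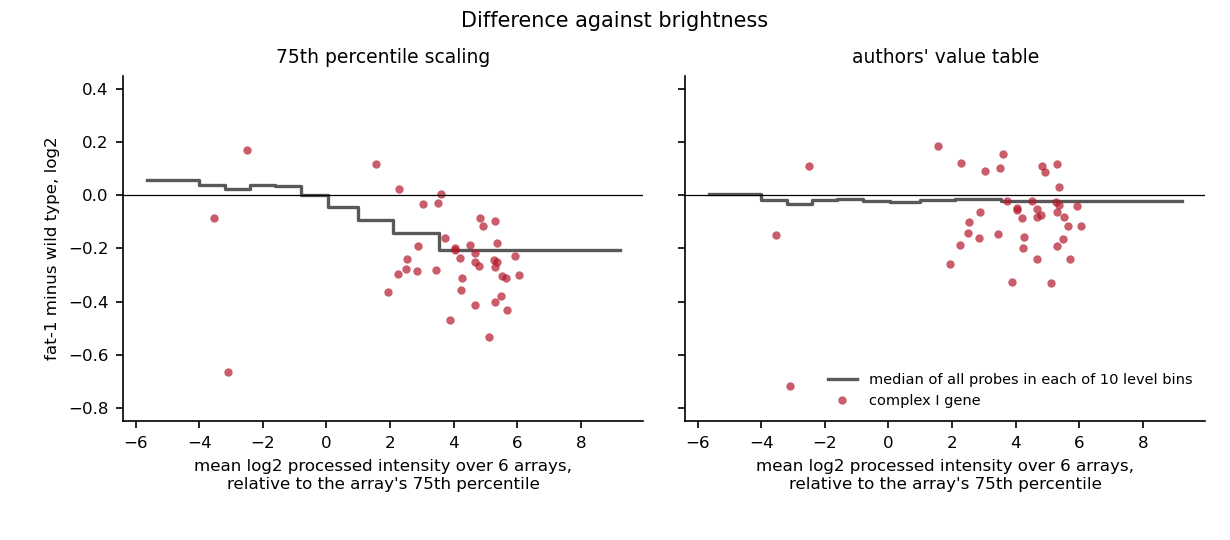
Difference of each measured complex I gene (point; log2, fat-1 minus wild type) against its mean log2 processed intensity relative to the 75th percentile, with the median of all probes in each of 10 bins of brightness as a stepped line. Under 75th percentile scaling (left) the line falls to -0.21 in the brightest bin, where 28 of the genes lie, and in the authors' table (right) it stays near 0.

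In levels, further probes of the same genes mostly gave like differences, which bears on probe choice and not on the number of animals. Further probes were not fitted by themselves without wild type replicate 2 here. Some further probes overlap the brightest in position, as in NDUFB4, NDUFS3, NDUFA4, NDUFA12 and NDUFA3. The likeness of such probes was in part fixed by shared bases. Of 76 member probes in the fit 67 were below 0, and none passed the test. For 24 genes there were 34 further probes besides the brightest, of which 30 had the same sign as the brightest and 31 differed from it by under 0.2, with a median gap of 0.08. The printed NDUFS8 probe was at -0.46 (SE 0.24), and that of NDUFS6 at -0.46 (SE 0.22), lower than the -0.30 of its brightest probe. In the authors' table these printed probes were at -0.31 and -0.40. The 4 NDUFB4 probes in the fit were at -0.36, -0.41, -0.46 and -0.51, the last being the printed one across 1543 bases, with an unadjusted p of 0.0422 and an adjusted p of 0.381 in limma's test. By the authors' values they were at -0.20, -0.27, -0.35 and -0.47, in the same order.

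Probes disagreed in sign for 4 genes in levels. NDUFS1 was above 0 at the brightest probe and at both printed probes (0.17 and 0.14), and at -0.54 (SE 0.25) at a further probe. That probe had a mean level of -1.97, brighter than printed probe 2 at -2.57. NDUFB2 was at -0.28 at the brightest and at 0.53 at a probe designed on an expressed sequence tag. NDUFA6 was at -0.19 and, at another such probe, at 0.08, and NDUFA9 was at 0.01 and -0.17. In the authors' table these 4 genes disagreed as well, and so did NDUFA4, NDUFA7 and NDUFV2. There NDUFA4 was at -0.04 at the brightest probe and at 0.02, 0.12 and -0.38 at the others. NDUFA7 was at 0.12 at the brightest and -0.16 at the other probe there, and NDUFV2 at 0.11 and -0.01. Of the 10 probes designed on expressed sequence tags, 3 were bright enough for the fit.

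**Figure D5:**
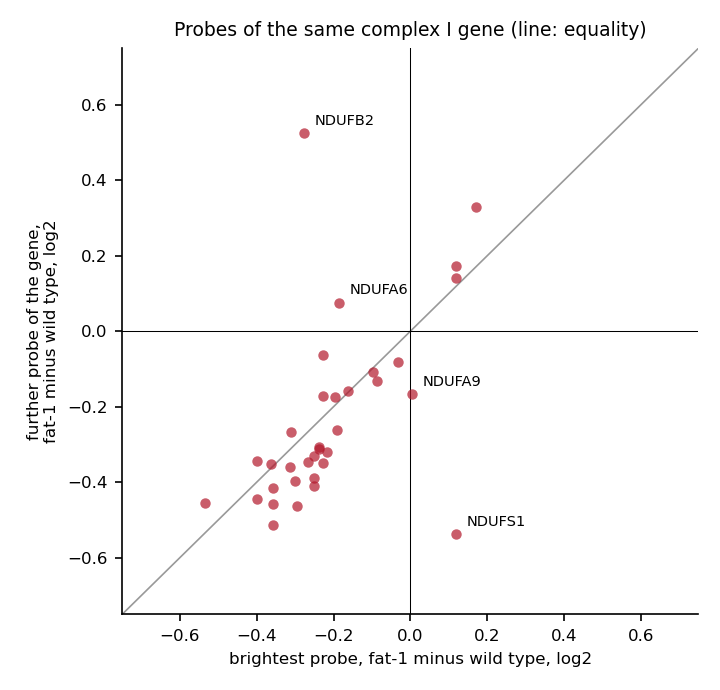
Difference (log2, fat-1 minus wild type, under 75th percentile scaling) at each of the 34 further probes of 24 complex I genes, vertical, against that at the brightest probe of the same gene, horizontal, with the line of equality. Of the points 30 lie in the quadrants of equal sign, and the 4 that do not are named.

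Assembly genes of complex I without an NDUF name lay on both sides of 0, and none of 12 measured passed the test. Below 0 were 8 in levels (median -0.13) and 6 in the authors' table (median -0.07). COA1, which joins the complex that assembles the membrane arm, had levels of 2.48, 2.49 and 2.18 in fat-1 blood, against 2.98, 3.21 and 2.81 in wild type blood. All fat-1 animals were lower, with a difference of -0.62 (SE 0.22, -0.51 without wild type replicate 2) in levels and -0.50 in the table, and an adjusted p of 0.342 in limma's test. TMEM126B, a member of the same assembly complex, had levels of -0.43, -0.73 and -0.45 in fat-1 blood, against -0.92, -1.86 and -1.14 in wild type blood. All fat-1 animals were higher, with a difference of 0.77 (SE 0.28, 0.49 without wild type replicate 2) in levels and 0.73 in the table, and an adjusted p of 0.354 in limma's test.

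The nuclear regulators of mitochondrial gene expression were evenly divided in levels, but not in the authors' table. Of 12 measured, 6 were below 0 in levels (median 0.05) and 4 in the authors' table (median 0.13), and none passed the test. TFAM, which packages and transcribes mitochondrial DNA, had levels of -2.02, -2.26 and -2.69 in fat-1 blood, against -2.95, -2.90 and -2.52 in wild type blood. Its groups overlapped, with a difference of 0.47 (SE 0.25, 0.41 without wild type replicate 2) in levels and 0.41 in the table. GABPB1, a subunit of a transcription factor that acts on many respiratory chain genes, was at 0.45 (SE 0.30, 0.13 without wild type replicate 2) and 0.41. PPARGC1A, the coactivator of mitochondrial biogenesis, was not well above background in any animal.

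Of the complex I subunits encoded by mitochondrial DNA, 6 had a probe, 3 were below 0 in levels (median -0.01) and 2 in the authors' table (median 0.13), and none passed the test. ND5, a proton-pumping subunit of the distal arm, had levels of 4.24, 4.16 and 3.89 in fat-1 blood, against 4.74, 4.50 and 4.18 in wild type blood. The groups overlapped, with a difference of -0.38 (SE 0.23, -0.36 without wild type replicate 2) in levels and -0.22 in the table. ND6, in the proximal arm, had levels of -0.44, -0.66 and -1.25 in fat-1 blood, against -1.03, -1.19 and -1.21 in wild type blood. The groups overlapped there too, at 0.36 (SE 0.25, 0.34 without wild type replicate 2) and 0.32. Whether nuclear and mitochondrial subunits differed from each other was not tested.

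Markers of blood cell types differed between the animals beside these values. All 4 measured gamma-delta T cell markers were below 0 without overlap (median -1.47), where 12.7% of all probes were lower without overlap, and their summed linear level relative to the 75th percentile was 6.65 to 26.5 in fat-1 blood, against 32.6 to 60 in wild type blood. For B cells 3 of 4 were below 0 and the sum was 56.9 to 62.6 in fat-1 blood, against 65.1 to 106 in wild type blood, and for T cells 7 of 8 were below 0 and the sum was 116 to 160 in fat-1 blood, against 162 to 248 in wild type blood. For NK cells 3 of 5 were below 0, with a sum of 31.0 to 65.3 in fat-1 blood, against 28.6 to 47.4 in wild type blood. Monocyte markers were above 0 in 6 of 7 cases, with a sum of 185 to 236 in fat-1 blood, against 170 to 217 in wild type blood, and platelet markers in 5 of 5, with 126 to 204 in fat-1 blood, against 132 to 174 in wild type blood.

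Of the neutrophil markers 5 were measured, 3 of them below 0, with a sum of 284 to 393 in fat-1 blood, against 260 to 337 in wild type blood, and CXCR2, ALPL, CAMP and CTSG were not well above background in any animal. Red cell markers were above 0 in 6 of 8 cases, and their sum was 533 to 1042 in fat-1 blood, against 98.6 to 1241 in wild type blood, highest in wild type replicate 2 and fat-1 replicate 2. Wild type replicate 2, the animal with the highest complex I median in levels, also had the highest T cell and gamma-delta T cell sums. Its sum over all measured probes was the highest too, at 261220 against 180790 to 218360 on the other arrays. In the authors' table its median deviation was 0.29 over T cell and 0.92 over gamma-delta T cell markers, the highest of the 6 animals. It was also the highest over neutrophil (1.07), red cell (1.18) and NK cell (0.46) markers in that table. Over monocyte (-0.20), B cell (-0.004) and platelet (-0.32) markers it was not. Below 0 there were 6 of 8 T cell, 4 of 4 gamma-delta T cell, 3 of 4 B cell and 3 of 5 NK cell markers. Above 0 there were 7 of 7 monocyte, 5 of 5 platelet, 6 of 8 red cell and 2 of 5 neutrophil markers. In levels without wild type replicate 2, 5 of 8 T cell, 4 of 4 gamma-delta T cell, 4 of 4 B cell and 0 of 5 neutrophil markers were below 0. No single marker passed limma's test. The part of cell composition in the complex I values was not tested.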

How the data were processed

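The scanner files held processed spot intensity, made with Agilent Feature Extraction, version 10.7.1.1 per the submitters' processing notes, with background subtracted per the file headers and not scaled between arrays. Mean and local background intensity and the flags, coded as other values for spots well above background or outlying, were used as deposited. The authors' deposited table held log2 values with a median of 6.38 on every array. Its columns correlated with their own arrays at 0.999 or above and with others at 0.986 or below, and it was read as quantile-normalized processed intensity. No source used here names its tool.

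Intensity was taken to log2, spots of a probe were averaged, and each array's 75th percentile was subtracted. Left out were 48 probes with an outlier flag. The 26810 probes that at least 3 of 6 arrays showed well above background were fitted with limma 3.58.1 (lmFit, eBayes; R 4.3.3), with genotype alone in the model, and p-values were adjusted over them by Benjamini-Hochberg. Replicates were separate animals. A member's symbol came from the files, and other genes were named through RefSeq's ARS-UCD2.0 table. Per-animal values are given for core subunits, for up to 3 members of each role with the smallest unadjusted p, and for members without overlap under both scalings. Of other lists up to 2 genes with the smallest p are named. The values of 1 member are not reported here by themselves, though counts and medians over members include it. The members and lists were chosen with earlier results of these data known. The fit was run on simulated data with independent noise at each probe. Those data held no shift of a whole array, so the run does not bear on such shifts here.

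Alternatives were the authors' table, quantile or median scaling, normexp with an offset of 50, other filters, the mean of all probes, an intensity trend, array weights (by the gene-by-gene method, since the default did not converge), a replicate block, and leaving out each animal. Slide and scan coincide with group, so neither could be fitted as a block.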

Additional observations from a re-analysis of the deposited data

How the results depend on the processing

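No complex I gene passed the adjusted threshold of 0.05 in limma's test under any of the 17 settings, the main one and 16 alternatives. At an unadjusted p under 0.05 there was 1 in the main setting, 0 without wild type replicate 1, 4 without wild type replicate 3, 4 with an intensity trend, 2 with probes well above background on all 6 arrays, 1 under each of the others but array weights, and 8 with array weights, where the lowest adjusted p was 0.0506. The share of all probes counted so was 12.8% in the main setting and 13.8% in the authors' table. It was not taken in the other settings, so their counts have no share of all probes to be set against. The median difference of -0.25 moved to -0.08 (-0.079) in the authors' table and to -0.08 (-0.0804) with quantile scaling, and 38 of 42 genes below 0 became 32 in each. The share of all probes below 0 was 55.4% in the main setting and 51.8% in each of these. Other scalings and corrections moved the median of all probes as well, from -0.06 to -0.10 with median scaling and to -0.15 with normexp, and the members' medians were then -0.29 and -0.20. Leaving out 1 animal at a time gave 35 to 40 genes below 0, where 52.2% to 59.0% of all probes were. With 0 past the threshold each time, the members' medians were -0.35 to -0.14. The value nearest 0, -0.14, came without wild type replicate 2, the farthest, -0.35, without wild type replicate 3, and the cause was not tested. With the replicate number as a block the median stayed at -0.25 with 38 genes below 0 and 0 past the threshold, while 105 of all probes passed in place of 46. Same-numbered animals had deviation correlations of 0.118, 0.185 and 0.00587 over probes, and differently numbered animals of -0.206 to 0.0767. With 3 animals per group these values cannot tell whether the numbers paired the samples. Of all probes 1985 passed with array weights, 125 with an intensity trend and with median scaling, 118 with normexp, 61 with probes above background on all 6 arrays, 16 in the authors' table and with quantile scaling, and 14 without a filter on dim probes. Leaving out 1 animal gave 8 to 55, with 8, 12 and 13 without fat-1 replicates 1, 2 and 3. Signs turned in the authors' table for NDUFV2 (0.11), NDUFA2 (0.0874), NDUFA5 (0.10), NDUFA7 (0.12), NDUFB3 (0.0907) and NDUFAB1 (0.0307), and with quantile scaling for NDUFV2 (0.11), NDUFA2 (0.0856), NDUFA5 (0.11), NDUFA7 (0.12), NDUFB3 (0.0912) and NDUFAB1 (0.0279). They turned with array weights for NDUFS1 (-0.0379), NDUFS4 (-0.17), NDUFA7 (0.00996) and NDUFAF2 (-0.26), with the mean of all probes for NDUFS1 (-0.0261), NDUFA9 (-0.0807) and NDUFB2 (0.12), with median scaling for NDUFS4 (-0.0200) and NDUFA9 (-0.0379) and with normexp for NDUFA5 (0.0345), NDUFB3 (0.0295) and NDUFAF2 (-0.0279). Leaving out 1 animal turned the sign of NDUFV2 (-0.19 to 0.0506), NDUFS1 (-0.0404 to 0.27), NDUFS4 (-0.0954 to 0.13), NDUFA2 (-0.23 to 0.00404), NDUFA5 (-0.0669 to 0.0335), NDUFA7 (-0.23 to 0.0859), NDUFA9 (-0.11 to 0.16), NDUFB3 (-0.13 to 0.0387), NDUFAF2 (-0.0570 to 0.41) and NDUFAF4 (-0.33 to 0.0443), given as the lowest and highest value. The cause of these turns was not tested. The number of arrays limits the precision, and NDUFAF2, NDUFAF4 and NDUFA4L2 were dim.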
